A study of Mus musculus with 12 samples.

Results

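The genes described here encode 30 lysosomal proteins: cathepsins and the proteases legumain and Tpp1, glycosidases, enzymes and carriers of lipids, membrane proteins, progranulin, and the transcription factor Tfeb. They were chosen by name and with earlier results of these data known, so their counts beside shares of all genes are descriptions. The rows that carry these symbols were taken from a table of 43629 mouse gene identifiers, and all 30 genes had a row. The cathepsin gene Ctss was not among them. Poly(A) RNA was counted per gene in 12 libraries of neuronal cultures from mouse cortex, 6 labelled IFNG (treatment given as IFNy) and 6 labelled Control. The IFNG cultures were kept under interferon-gamma by a lentivirus that carries Ifng, the gene of that cytokine, and all 12 samples share a protocol of transduction at 7 days in vitro and harvest 10 days later. The sources used here do not give the construct in Control cultures, the promoter of the Ifng construct, the mouse strain or age, or whether replicates came from separate cultures or animals. The p-values therefore reflect no more than sample-to-sample spread, and that spread may be technical.

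Lysosomes are acidic organelles in which hydrolases break down proteins, glycans and lipids that arrive by endocytosis and autophagy. Most hydrolases are tagged with mannose phosphate in the Golgi apparatus and carried to the lysosome by receptors, and heavily glycosylated membrane proteins such as LAMP1 and LAMP2 line its inner face. TFEB switches on many lysosomal genes together through E-box elements in their promoters. Neurons depend on lysosomes over their whole life, and inherited loss of many of these proteins causes neurodegenerative storage disease. In cells that present antigen, cathepsins also process antigens and the invariant chain of class II molecules.

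Of the 30 genes, 29 had enough counts to be tested, 22 were higher in IFNG libraries and none was lower. Values are counts scaled to a common library size (CPM), on totals adjusted by edgeR's TMM method, and a gene was called where its adjusted p was under 0.05 in edgeR's quasi-likelihood test over 15241 genes. In that test 14.3% of all genes were called higher in IFNG and 9.79% lower. At an unadjusted p under 0.05, which 35.0% of all genes passed in either direction, 23 of the 29 were higher and 0 lower. The 29 genes had a median log2 fold change of 0.63, and all genes tested one of -0.02. For 15 of the 29, every IFNG library lay above every Control library, which held for 8.75% of all genes tested, and for none was every IFNG library below, against 4.09%. Most changes were modest: 8 of the 22 were 2-fold or more, as were 6.69% of all genes tested, and Ctso changed most, about 4.05-fold. By class, all 6 lipid genes rose, 8 of 10 tested proteases, 4 of 6 membrane proteins, 2 of 5 glycosidases, and both progranulin and Tfeb. Other scalings and filters gave 22 or 23 higher and 0 lower, and leaving out 1 library gave 21 to 23 higher and 0 lower. DESeq2 and limma-voom each called 22 higher and 0 lower.

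**Figure D1:**
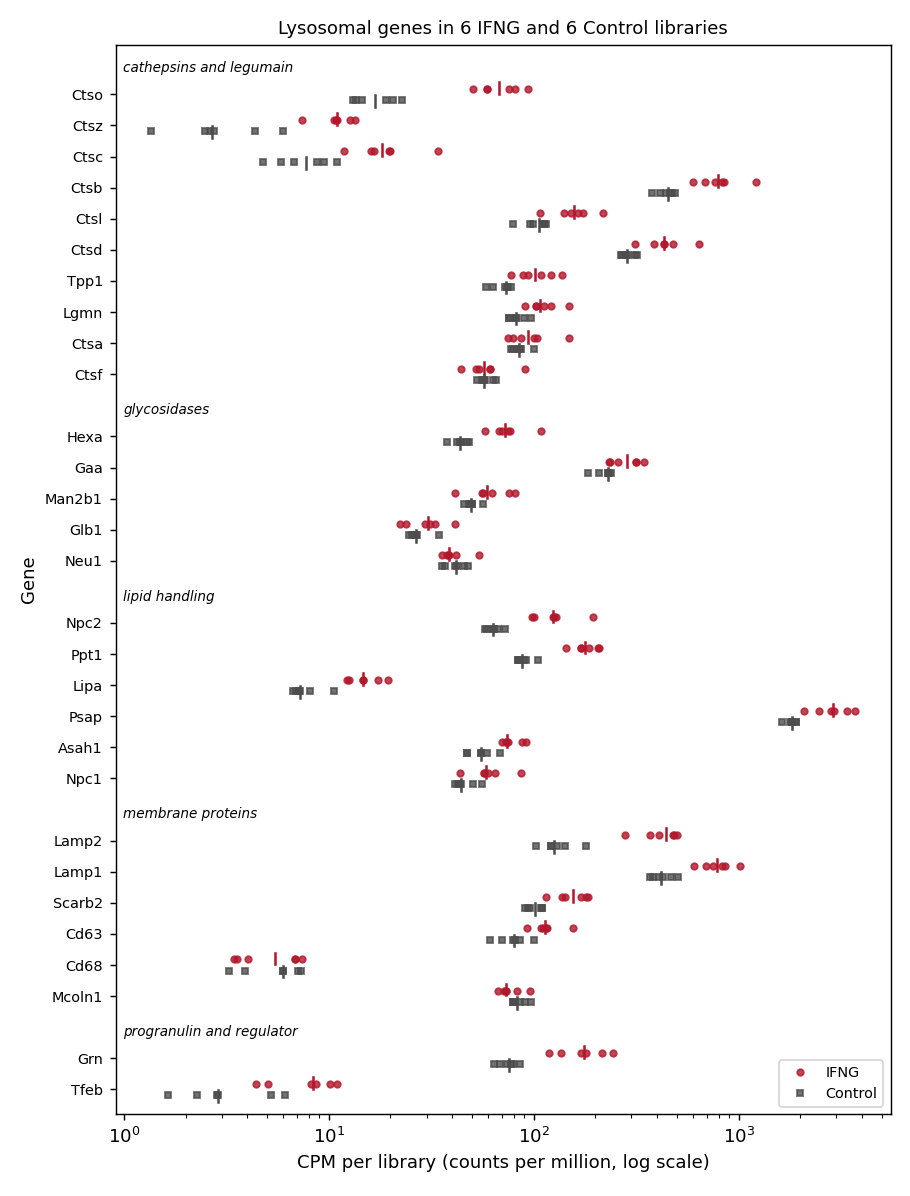
Level of the 29 tested lysosomal genes in each library, in CPM on a log scale, with IFNG libraries as red circles above Control libraries as grey squares and short lines at the medians. In Ctso, Lamp2 and Grn the 2 groups stand clear of each other, whereas in Ctsf, Neu1 and Cd68 they overlap.

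Ifng itself was read at 4.98 to 17.9 CPM in IFNG libraries and 0 to 0.170 CPM in Control libraries, so all labels matched their Ifng level (log2 fold change 7.27 ± 0.48, adjusted p = 3.45e-10). Errors of log2 fold changes are standard errors (SE). Library totals were 13875435 to 34239380 counts in IFNG and 14408343 to 20299507 in Control. Of the 18 astrocyte markers checked, 14 of 16 tested rose, and their summed level was 5397 to 8586 CPM in IFNG libraries against 3315 to 3613 CPM in Control libraries. Gjb6 was at 0 in all IFNG libraries and S100b averaged 0.473 CPM in IFNG and 0.508 CPM in Control. All 16 neuronal markers were detected and 6 fell, with sums of 4752 to 6071 CPM in IFNG against 6329 to 6902 CPM in Control. Of 20 microglia and macrophage markers only 4 had enough counts for a test, and P2ry12 and Sall1 rose. The summed level of these 20 was 38.7 to 54.6 CPM in IFNG and 28.4 to 35.999 CPM in Control. Csf1r averaged 0.464 CPM in IFNG and 0.580 CPM in Control, and Tmem119 0.0215 CPM in IFNG and 0 in Control. Among oligodendrocyte lineage markers 1 of 9 tested rose (11.1%) and 2 fell, where 14.3% of all genes tested rose and 9.79% fell. Cnp rose, with means of 62.9 CPM in IFNG and 14.4 CPM in Control. Olig2 (63.3 CPM in IFNG, 80.8 CPM in Control) and Pdgfra (45.5 CPM in IFNG, 71.0 CPM in Control) fell. The sums, which mix these opposite changes, were 318 to 362 CPM in IFNG against 299 to 404 CPM in Control. Among fibroblast and mural markers 3 of 7 tested rose (132 to 182 CPM in IFNG, 99.1 to 123 CPM in Control), and among endothelial markers 1 of 2 (2.87 to 6.02 CPM in IFNG, 1.599 to 4.35 CPM in Control). That gene was Ly6c1, with 310 counts over the IFNG libraries and 1 over the Control libraries, while Pecam1 averaged 1.11 CPM in IFNG and 1.48 CPM in Control (adjusted p = 0.547) and Cldn5 was at 0 throughout. The untested Cdh5, Flt1, Kdr and Esam also had lower means in IFNG than in Control. Tek, likewise untested, went the other way: its mean was 0.193 CPM under IFNG but 0.0961 CPM for Control. What part these cell types have in the lysosomal result was not tested, and in such bulk samples fewer cells of a type and less RNA per cell cannot be told apart.

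Since TFEB acts through the letters TCACGTG, and interferon-gamma through GAS (TTCNNNGAA) and ISRE elements (GAAA, any 2 bases, GAAA), these were looked for on both strands in RefSeq promoter windows (GRCm38.p6) from 250 bases before to 50 bases after each start. Windows were held for 26 of the 30 genes (31 windows). TCACGTG stood in 7 of the 31 windows, which belonged to 7 of the 26 genes, against 3.77% of all 32851 windows. The palindrome TCACGTGA, which contains it, stood in 3 of the 31 windows (Ctsa, Ctsd and Mcoln1), against 0.974% of all windows. The same palindrome with G before it and C after it stood in none, against 0.326%. GAS stood in 1 of the 31 windows (Ctsc), against 8.30% of all windows, and ISRE in 2 (Ctso and Lamp1), against 3.44%. The stretches below are shown because they hold these matches, which are in capitals.
Lamp1 (chr8:13159091-13159159, plus strand): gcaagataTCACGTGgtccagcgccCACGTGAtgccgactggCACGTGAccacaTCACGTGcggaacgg
Ctsa (chr2:164833758-164833787, plus strand): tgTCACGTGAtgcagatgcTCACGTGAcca
Ctsd (chr7:142387908-142387937, minus strand): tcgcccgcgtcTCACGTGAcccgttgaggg
Mcoln1 (chr8:3500462-3500491, plus strand): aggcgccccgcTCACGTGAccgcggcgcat
Lgmn (chr12:102439128-102439150, minus strand): aatgtctgTCACGTGgtccattt
Glb1 (chr9:114401021-114401043, plus strand): cttctgagTCACGTGgcctacag
Gaa (chr11:119267814-119267836, plus strand): ctgtgcgaTCACGTGtttgactc
Ctsc (chr7:88277841-88277865, plus strand): ctttggcgTTCCTTGAAaggcagag
Ctso (chr3:81932609-81932638, plus strand): gagccaaGAAACCGAAAGAGAAAgcgggcc
Lamp1 (chr8:13159018-13159043, plus strand): caacctacTTTCCATTTCgggacact
Lamp1 held TCACGTG or its reverse complement 4 times, between 62 and 10 bases before its start. The 2 overlapping ISRE matches of Ctso began at positions 16 and 22 of the transcribed part. Of the 7 genes with TCACGTG, Lamp1, Ctsd, Lgmn and Gaa rose and Ctsa, Glb1 and Mcoln1 did not pass, so 4 of 7 were called, against 22 of the 29 genes tested. These matches are descriptions of letters and not of binding.

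Ctso, a cysteine protease of the papain family, changed most. The gene (ENSMUSG00000028015) lies on the plus strand at chr3:81932601-81956725 of GRCm38, Ctsz (ENSMUSG00000016256) on the minus strand at chr2:174427493-174439039, and Lamp2 (ENSMUSG00000016534) on the minus strand at chrX:38401357-38456454. Ctso was read at 50.8, 67.7 and 93.5 CPM (lowest, median and highest) in IFNG libraries, against 13.1, 16.8 and 22.8 CPM in Control libraries, and the groups did not overlap. The log2 fold change was 2.02 ± 0.17 (adjusted p = 1.05e-08). Ctsz, a carboxypeptidase of the same family, was scarce, at 7.42, 10.9 and 13.4 CPM in IFNG libraries, against 1.36, 2.69 and 5.97 CPM in Control libraries. Its groups did not overlap either, and it rose by 1.75 ± 0.27 (adjusted p = 4.62e-05). Ctsc removes dipeptides and activates serine proteases of immune granules. It stood at 11.9, 18.2 and 34.2 CPM in IFNG libraries, against 4.76, 7.76 and 11.02 CPM in Control libraries, with IFNG 1 well above the other IFNG libraries, and rose by 1.34 ± 0.23 (adjusted p = 0.000216). The 250 bases before the starts of the 2 genes with the larger change follow, from RefSeq GRCm38.p6, and contain none of the motifs searched.
Ctso (chr3:81932351-81932600, plus strand): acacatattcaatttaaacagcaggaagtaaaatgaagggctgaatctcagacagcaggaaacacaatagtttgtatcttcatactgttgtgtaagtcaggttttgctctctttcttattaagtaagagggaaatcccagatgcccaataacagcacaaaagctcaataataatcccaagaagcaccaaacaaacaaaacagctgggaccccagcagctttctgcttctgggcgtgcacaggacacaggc
Ctsz (chr2:174439040-174439289, minus strand): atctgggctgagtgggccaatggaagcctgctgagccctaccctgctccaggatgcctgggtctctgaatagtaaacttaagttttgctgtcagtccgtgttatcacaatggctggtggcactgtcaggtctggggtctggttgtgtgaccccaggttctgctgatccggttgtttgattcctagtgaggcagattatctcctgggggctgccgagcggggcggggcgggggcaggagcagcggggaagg
GC content was 42.0% in the Ctso stretch, with 1 CG dinucleotide, and 58.8% in the Ctsz stretch, with 7.

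The abundant cathepsins rose by less. Ctsb, which acts as both an endopeptidase and a dipeptidase, was read at 601, 796 and 1214 CPM in IFNG libraries, against 376, 452 and 489 CPM in Control libraries, without overlap (log2 fold change 0.90 ± 0.13, adjusted p = 3.29e-05). The aspartic protease gene Ctsd stood at 312, 433 and 641 CPM in IFNG libraries, against 265, 285 and 318 CPM in Control libraries. Only IFNG 3 reached into the Control range, and Ctsd rose by 0.63 ± 0.13 (adjusted p = 0.000953). Ctsl, a cysteine endopeptidase, was read at 108, 158 and 219 CPM in IFNG libraries, against 79.5, 106 and 115 CPM in Control libraries. Its groups overlapped at IFNG 3 alone, and it rose by 0.64 ± 0.13 (adjusted p = 0.00144). Tpp1 trims tripeptides from protein ends, and its loss causes a childhood neuronal ceroid lipofuscinosis. It stood at 77.7, 101 and 138 CPM in IFNG libraries, against 58.6, 73.1 and 77.4 CPM in Control libraries, a narrow separation, and rose by 0.57 ± 0.12 (adjusted p = 0.00171). Lgmn, the asparagine-specific protease that matures several cathepsins, was read at 91.0, 108 and 149 CPM in IFNG libraries, against 75.4, 82.1 and 97.2 CPM in Control libraries. The groups overlapped at the edges, and the gene rose by 0.44 ± 0.11 (adjusted p = 0.00622).

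Ctsa and Ctsf did not pass, and Ctsh was too scarce to test. Ctsa, a serine carboxypeptidase that also shields beta-galactosidase and neuraminidase from degradation, stood at 74.8, 93.4 and 149 CPM in IFNG libraries, against 77.7, 84.6 and 100.1 CPM in Control libraries, with IFNG 4, IFNG 5 and IFNG 6 above the highest Control library (log2 fold change 0.21 ± 0.14, adjusted p = 0.287). Ctsf averaged 60.6 ± 16.2 CPM in IFNG, against 58.8 ± 4.76 CPM in Control cultures (SD, n = 6 each; adjusted p = 0.847). Ctsh, an aminopeptidase, had 51 counts over the IFNG libraries and 17 over the Control libraries. Some reads are uncertain as to gene, since the strand setting of the counter is not given in the sources used here. In the GENCODE M21 annotation 11 of the 30 genes share exonic bases with another gene, among them Ctsa (10.5% with Pltp on the other strand), Ctsb (12.8% with Fdft1), Lamp1 (9.31% with Grtp1), Ctsd (34.4% with the same-strand gene Gm49369) and Ctsl (26.8% with the antisense gene Gm47123). Gm49369 and Gm47123 had no row among the counted genes. Pltp also rose (adjusted p = 1.77e-10), with 6127 counts over the IFNG libraries and 439 over the Control libraries, and Grtp1 had 670 in IFNG and 279 in Control.

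Glycosidases, which remove sugars from glycogen, glycoproteins and glycolipids, had the lowest median log2 fold change of the classes, 0.31. Hexa encodes the alpha subunit of the hexosaminidase lost in Tay-Sachs disease. It was read at 58.1, 72.5 and 108 CPM in IFNG libraries, against 37.6, 43.8 and 48.2 CPM in Control libraries, with no overlap, and rose by 0.79 ± 0.12 (adjusted p = 6.23e-05). Gaa, the lysosomal alpha-glucosidase that degrades glycogen, stood at 234, 286 and 346 CPM in IFNG libraries, against 185, 229.8 and 238 CPM in Control libraries. IFNG 3 and IFNG 4 fell inside the Control range, and Gaa rose by 0.36 ± 0.11 (adjusted p = 0.0171). Man2b1, an alpha-mannosidase, was read at 41.5, 59.4 and 81.2 CPM in IFNG libraries, against 45.8, 49.6 and 56.9 CPM in Control libraries. It did not pass at 0.31 ± 0.13 (adjusted p = 0.0864), but did without IFNG 3, at 0.41 (adjusted p = 0.00981), and with risen genes left out of the totals, at 0.43 (adjusted p = 0.0218). That scaling also moved the median of all genes tested up, from -0.02 to 0.10. With 1 library left out, Man2b1 ran from 0.23 to 0.41. The beta-galactosidase gene Glb1 averaged 30.2 ± 6.83 CPM in IFNG, against 27.5 ± 3.601 CPM in Control cultures, and the sialidase gene Neu1 41.0 ± 6.68 CPM in IFNG, against 41.7 ± 4.70 CPM in Control cultures (SD, n = 6 each; adjusted p = 0.516 and 0.911). Ctsa, Glb1 and Neu1 encode the 3 enzymes of one lysosomal complex, and none of them passed, with log2 fold changes of 0.21, 0.14 and -0.02. They were grouped after their values were seen.

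Every lipid gene rose, in a class that holds the most abundant of the 30. Psap encodes prosaposin, the precursor of saposins, which present glycolipids to their hydrolases. It was read at 2081, 2874 and 3708 CPM in IFNG libraries, against 1636, 1814 and 1898 CPM in Control libraries, without overlap (log2 fold change 0.68 ± 0.11, adjusted p = 0.000146). Psap made up 38.4 ± 1.32% of the summed CPM of the 30 genes in IFNG and 39.97 ± 0.667% in Control cultures (SD, n = 6 each). Ppt1 removes palmitate from proteins, and its loss causes infantile ceroid lipofuscinosis. It stood at 143, 178 and 209 CPM in IFNG libraries, against 83.8, 87.5 and 105 CPM in Control libraries, clearly apart, and rose by 1.01 ± 0.099 (adjusted p = 1.59e-07). Lipa, the acid lipase that splits cholesteryl esters and triglycerides, was scarce at 12.3, 14.6 and 19.4 CPM in IFNG libraries, against 6.65, 7.20 and 10.6 CPM in Control libraries. Its groups did not overlap, and it rose by 0.96 ± 0.16 (adjusted p = 0.000118). Asah1, the acid ceramidase, was read at 69.9, 74.2 and 92.1 CPM in IFNG libraries, against 47.3, 55.1 and 68.1 CPM in Control libraries, and rose by 0.51 ± 0.11 (adjusted p = 0.00131).

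NPC2 and NPC1 hand cholesterol from the lysosomal lumen to the membrane, and loss of either causes Niemann-Pick type C disease. Npc2, the soluble carrier, stood at 97.7, 125 and 195 CPM in IFNG libraries, against 58.1, 63.3 and 72.2 CPM in Control libraries, and rose by 1.01 ± 0.14 (adjusted p = 1.02e-05). Its groups did not overlap, and IFNG 5 lay far above the other IFNG libraries. Npc1, the membrane protein, was read at 43.6, 58.6 and 86.8 CPM in IFNG libraries, against 41.2, 44.0 and 56.1 CPM in Control libraries, with overlap: IFNG 3 lay below 4 of the 6 Control libraries. Npc1 rose by 0.41 ± 0.13 (adjusted p = 0.0290), a call that was lost without IFNG 6, Control 1, Control 2 or Control 3 (adjusted p = 0.0841, 0.0628, 0.0677 and 0.0581). It was the only one of the 22 called genes that any of the 20 alternative settings ended, and the other 21 were called higher in every one.

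**Figure D2:**
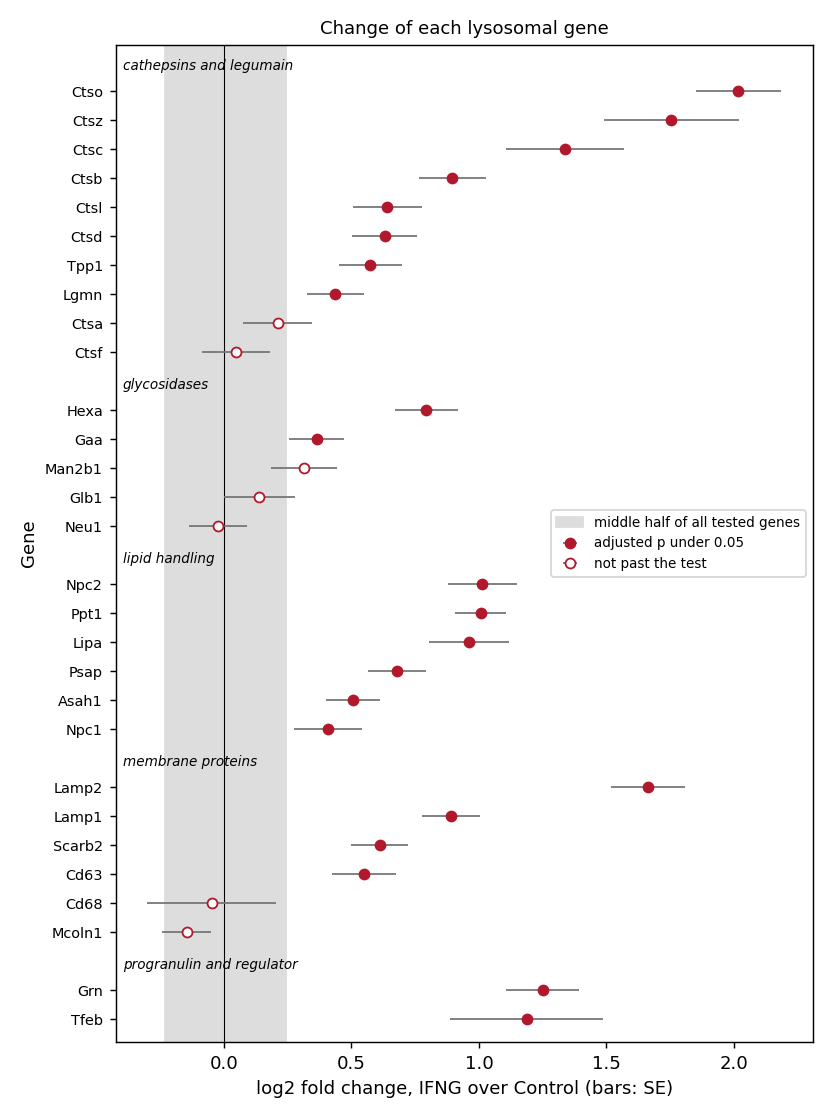
Log2 fold change of IFNG over Control for each tested lysosomal gene, with bars of 1 SE, by class. Filled points passed the test, and the grey band runs from the first to the third quartile of all genes tested, -0.23 to 0.24. Ctso, Ctsz and Lamp2 lie farthest to the right, and Mcoln1, Cd68 and Neu1 lie just left of 0.

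Among membrane proteins both LAMP genes rose. Lamp2, whose product also takes part in chaperone-mediated autophagy, was read at 278, 442 and 503 CPM in IFNG libraries, against 103, 125 and 179 CPM in Control libraries. The groups were well apart, and the log2 fold change was 1.66 ± 0.14 (adjusted p = 2.30e-08). Lamp1, the companion gene, stood at 609, 787 and 1014 CPM in IFNG libraries, against 369, 418 and 505 CPM in Control libraries, and rose by 0.89 ± 0.11 (adjusted p = 6.54e-06). The promoter of Lamp2, the membrane gene that changed most, held no match to the motifs searched, unlike that of Lamp1. Its 250 bases before the start (RefSeq GRCm38.p6) were 47.6% GC with 6 CG dinucleotides.
Lamp2 (chrX:38456461-38456710, minus strand): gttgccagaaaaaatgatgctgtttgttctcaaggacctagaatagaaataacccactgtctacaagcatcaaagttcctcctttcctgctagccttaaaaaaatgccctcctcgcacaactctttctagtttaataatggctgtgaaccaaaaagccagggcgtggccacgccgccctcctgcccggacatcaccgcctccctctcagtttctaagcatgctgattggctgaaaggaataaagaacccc
Scarb2, the receptor that carries glucocerebrosidase to lysosomes, was read at 115, 156 and 184 CPM in IFNG libraries, against 90.4, 102 and 110.3 CPM in Control libraries, and rose by 0.61 ± 0.11 (adjusted p = 0.000336). Here IFNG 5 was the lowest IFNG library. The tetraspanin gene Cd63 stood at 93.0, 113 and 155 CPM in IFNG libraries, against 60.9, 80.2 and 101 CPM in Control libraries, and rose by 0.55 ± 0.12 (adjusted p = 0.00269). Mcoln1, the calcium channel of the lysosomal membrane, was read at 67.2, 73.4 and 95.4 CPM in IFNG libraries, against 79.3, 82.9 and 97.2 CPM in Control libraries, and did not pass at -0.15 ± 0.096 (adjusted p = 0.301). Cd68, a macrophage and microglia protein of the LAMP family, averaged 5.37 ± 1.86 CPM in IFNG, against 5.58 ± 1.66 CPM in Control cultures (SD, n = 6 each; adjusted p = 0.918).

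Grn encodes progranulin, a growth factor precursor that is cut to granulins in lysosomes and whose loss causes frontotemporal dementia or ceroid lipofuscinosis. It stood at 119, 175 and 244 CPM in IFNG libraries, against 63.8, 75.9 and 85.5 CPM in Control libraries, without overlap, and rose by 1.25 ± 0.14 (adjusted p = 1.37e-06). Tfeb was scarce, at 4.41, 8.41 and 10.95 CPM in IFNG libraries, against 1.64, 2.87 and 6.14 CPM in Control libraries. The groups overlapped at IFNG 3 and IFNG 4, and Tfeb rose by 1.19 ± 0.30 (adjusted p = 0.00635). Its relatives Tfe3 and Mitf averaged 47.7 and 1.92 CPM in IFNG and 40.8 and 1.98 CPM in Control libraries, and neither passed (adjusted p = 0.116 and 0.943).

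Per kilobase of annotated exon, Psap was the most abundant of the 29 genes, at 1054 CPM per kilobase in IFNG and 659 in Control libraries. Lamp1, Ctsd, Ctsb and Gaa followed in that order in both groups. Lamp2 ranked 9 of 29 in IFNG and 15 in Control, Ctso ranked 18 in IFNG and 25 in Control, and Grn ranked 6 in IFNG and 10 in Control. Ctsa stood lower in the order, at 16 in IFNG and 11 in Control, as did Asah1, at 15 in IFNG and 12 in Control, and Cd68, at 26 in IFNG and 23 in Control.

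Levels varied more among IFNG than among Control libraries. The coefficient of variation was larger in IFNG for 24 of the 29 genes, with a median of 22.4% in IFNG and 10.6% in Control. IFNG 5 was the highest IFNG library for 22 of the 29 genes, and IFNG 3 was the lowest for 22. The summed level of the 30 genes was 9754 CPM in IFNG 5 and 5548 CPM in IFNG 3, while the Control libraries ran from 4072 to 4867 CPM. IFNG 5 also had the highest Ifng, at 17.9 CPM, and the lowest sum of neuronal markers, at 4752 CPM. IFNG 3 had the lowest Ifng of its group, at 4.98 CPM, the lowest sum of astrocyte markers, at 5397 CPM, and the highest sum of neuronal markers, at 6071 CPM. Mitochondrially encoded genes took 5.59% of the counts of IFNG 5 and 3.53% of IFNG 3, the highest and lowest of that group. Among Control libraries the share ran from 3.39% in Control 6 to 5.72% in Control 5. Whether these values bear on one another was not tested. The mean sum of the 30 genes was 1.66-fold higher in IFNG than in Control libraries, and 1.56-fold higher without IFNG 5. Without that library 22 genes rose and the median change was 0.54 on the log2 scale. The summed astrocyte markers were 2.08-fold higher in IFNG than in Control libraries, and 2.03-fold higher without IFNG 5.

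**Figure D3:**
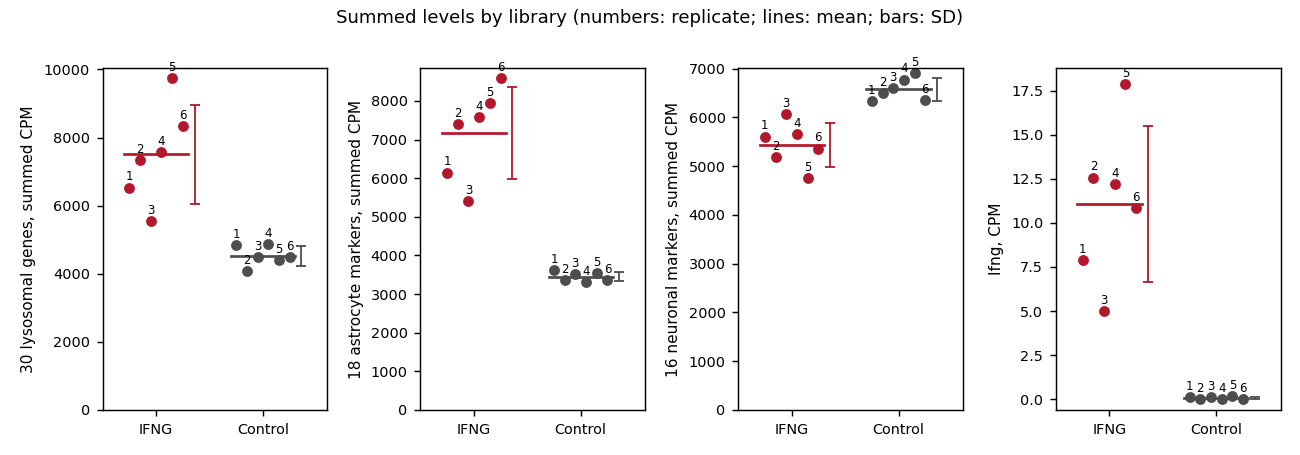
Summed CPM of the 30 lysosomal genes, of 18 astrocyte markers and of 16 neuronal markers, and Ifng CPM, in each library, with replicate numbers, means as lines and SD as bars. IFNG 5 is highest and IFNG 3 lowest for the lysosomal genes and for Ifng, and IFNG 6 is highest for astrocyte markers.

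The rest of the lysosomal system had a smaller median change. Its lists and the 30 genes were chosen with earlier results of these data known. What part that choice has in the difference was not tested. Among 100 other lysosomal genes, 89 were tested, and the median was 0.10 on the log2 scale. Of these 89, 21 rose (23.6%) and 8 fell, where 14.3% of all genes tested rose and 9.79% fell. When risen genes were left out of the library totals, which put the median of all genes at 0.10, 32 rose and 3 fell. That made 91.43% of their calls higher, against 72.41%. Over all genes tested the same share moved as well, to 79.75%, against 59.41%. Other hydrolases had a median of 0.38: 12 of 27 tested rose and Galc, of myelin lipid breakdown, fell. That list also holds genes that do not encode hydrolases, among them Sumf1 and Gm2a, which both rose. With risen genes left out of the totals, 17 genes of that list were higher and none lower, so the Galc call ended. Idua, which degrades glycosaminoglycans, averaged 30.4 ± 8.21 CPM in IFNG, against 11.3 ± 0.745 CPM in Control cultures (SD, n = 6 each). Sumf1, which activates sulfatases, rose by 0.77 ± 0.12. Ids, the most abundant hydrolase not past the test, stood at -0.30 ± 0.11 (adjusted p = 0.0551), and it passed as lower in 5 of the alternative settings. Rnaset2a and Rnaset2b, which also rose, are near-identical copies whose reads may have been divided between them.

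Of 16 tested membrane proteins outside the 30, Litaf, Laptm4a, Tpcn2 and Cln3 rose, and Lamp5 and Slc17a5 fell. The fallen genes numbered 1 without IFNG 2, 3, 5 or 6, or without Control 1, 3, 4, 5 or 6. With risen genes left out of the totals 7 were higher and 1 lower. Litaf, of endosomal sorting, averaged 18.03 ± 1.18 CPM in IFNG, against 4.97 ± 0.926 CPM in Control cultures, Laptm4a 413 ± 79.0 CPM in IFNG, against 169 ± 28.6 CPM in Control cultures, and the ion channel gene Tpcn2 12.2 ± 2.75 CPM in IFNG, against 3.72 ± 0.449 CPM in Control cultures (SD, n = 6 each). Tmem106b, a membrane protein linked to frontotemporal dementia, did not pass at -0.23 ± 0.10 (adjusted p = 0.108). Lamp5, a neuronal member of the LAMP family and a marker of an interneuron class, averaged 3.35 CPM in IFNG, against 7.04 CPM in Control cultures (adjusted p = 0.000785).

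The V-ATPase, the proton pump that acidifies lysosomes and synaptic vesicles, had calls in both directions. Of its 18 genes 2 rose (11.1%) and 4 fell, where 14.3% of all genes tested rose and 9.79% fell. The median was -0.08 on the log2 scale. It was 0.035 when risen genes were left out of the totals, where 2 genes were higher and 2 lower. Atp6v1a, the catalytic subunit, averaged 435 ± 56.6 CPM in IFNG, against 560.3 ± 42.2 CPM in Control cultures, and Atp6v1g2 112 ± 16.8 CPM in IFNG, against 154 ± 8.53 CPM in Control cultures (SD, n = 6 each; adjusted p = 0.00698 and 0.00134). Atp6v1b2 and Atp6v0e2 fell too, while Atp6v0e and Atp6v0a2 rose, by 0.67 ± 0.13 and 0.49. The fallen genes also numbered 2 with no filter on low counts, without IFNG 2 or without IFNG 6. Atp6v0a1, the most abundant, stood at 0.05 ± 0.087 (adjusted p = 0.721).

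Sorting and nutrient-sensing genes had median log2 fold changes of -0.0089 and 0.083. In the sorting list 1 gene of 10 rose and 0 fell. In the nutrient-sensing list 0 of 15 tested rose and 1 fell. Of all genes tested, 14.3% rose and 9.79% fell. Of 10 genes for mannose phosphate tagging and sortilin sorting, M6pr, the cation-dependent receptor of tagged hydrolases, rose by 0.37 ± 0.090 (adjusted p = 0.00473), and Sort1 stood at -0.13 ± 0.089 (adjusted p = 0.333). Of 15 tested relatives of Tfeb and genes of lysosomal nutrient sensing, Rragd fell by 0.38 on the log2 scale (adjusted p = 0.0145; 0.0693 with risen genes left out of the totals), and Mtor stood at 0.09 ± 0.098 (adjusted p = 0.583). With risen genes left out of the totals 2 genes of each of these lists were higher and none lower. Without Control 6 also 2 sorting genes were higher, and without IFNG 3 or with no composition factor 2 nutrient-sensing genes were lower. Cystatins inhibit papain-family cathepsins, and both tested ones rose: Cst3, which is secreted, averaged 711 ± 135 CPM in IFNG, against 349 ± 39.5 CPM in Control cultures (SD, n = 6 each; adjusted p = 1.12e-06), and Cstb, which acts in the cytosol, rose by 0.49 ± 0.16 (adjusted p = 0.0332). The Cstb call was lost without IFNG 1, IFNG 2, IFNG 5, Control 2, Control 3 or Control 5 (adjusted p = 0.0516 to 0.0776). It was also lost with the replicate number as a block (adjusted p = 0.0572). Cathepsins typical of immune cells and osteoclasts stayed near the detection limit: Ctsk averaged 0.697 CPM in IFNG, against 0.405 CPM in Control cultures (adjusted p = 0.455), and Ctss averaged 0.355 CPM in IFNG and had 0 counts in Control.

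**Figure D4:**
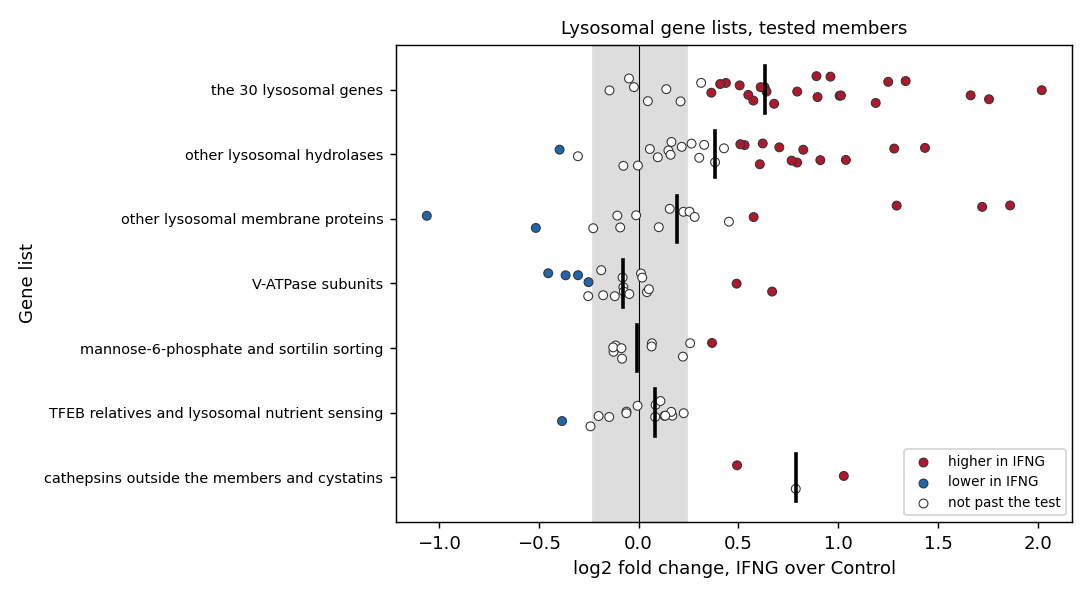
Log2 fold change of IFNG over Control for the tested genes of the 30 and of 6 other lysosomal lists. Each point is a gene, red where higher, blue where lower and white where not past the test, and black lines are medians. Medians ran from 0.79 (3 other cathepsins and cystatins), 0.63 (the 30 genes) and 0.38 (other hydrolases) to -0.08 (V-ATPase subunits). The grey band runs from the first to the third quartile of all genes tested.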

How the data were processed

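Poly(A) RNA of 12 mouse cortical neuronal cultures was sequenced. The values the authors deposited were taken to be raw counts for each gene. The submitters' processing notes name STAR 2.4, DESeq2 and the builds GRCm39 and mm10 without giving their roles. For the counter, its strand setting and its annotation, the sources used here give nothing. Symbols and exon lengths came from GENCODE M21 (GRCm38), which matched 42462 of 43629 identifiers, and those without a symbol held 0.133 to 0.158% of counts.

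IFNG was compared with Control by two-sided quasi-likelihood F-tests in edgeR 4.0.16 under R 4.3.3, after filterByExpr and TMM scaling. Calls used p-values adjusted by Benjamini and Hochberg, at a threshold of 0.05. No block was used. SE is the absolute log2 fold change over the square root of F. Libraries within a group differed by at least 7.30 chi-square units per gene, so none was taken for a copy of another and all 12 counted as samples. That difference cannot show whether they came from separate cultures or animals. The test was tried on simulated data.

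The 30 genes and all lists were chosen with earlier results of these data known. The lowest, median and highest CPM are given for every called gene of the 30 and the most abundant uncalled gene of a class. From each other list, the called genes of smallest p and the most abundant uncalled gene are described, plus genes chosen after their values were seen. Not every gene that this selection names is reported here. Alternatives used DESeq2 1.42.0, limma-voom (limma 3.58.1), other scalings and filters, the replicate number as a block, and each library left out.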

Additional observations from a re-analysis of the deposited data

Results flagged for a closer look

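A library stood apart from the other 5 of its group in 9 of 134 groups of values checked, by the gap to its nearest neighbour over the group's range; chance gives about 1 in 20. Of these, 4 were high values of IFNG 5: Ctsf at 91.1 CPM (others 44.3 to 61.3), Neu1 at 54.0 CPM (others 35.6 to 41.7), Npc2 at 195 CPM (others 97.7 to 129) and Cd63 at 155 CPM (others 93.0 to 116). IFNG 1 was high for Ctsc, at 34.2 CPM (others 11.9 to 19.8), and IFNG 3 for Atp6v1g2, at 145 CPM (others 100.2 to 112). Control 4 was high for Glb1, at 34.6 CPM (others 24.7 to 26.8), and low for the summed genes of mannose phosphate and sortilin sorting, at 1063 CPM (others 1148 to 1197). Control 5 was low for Sumf1, at 15.6 CPM (others 21.7 to 24.7).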

How the results depend on the processing

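Of the 30 lysosomal genes, 22 were higher in IFNG, and 21 to 23 were under the 20 alternatives (DESeq2, limma-voom, other scalings and filters, the replicate block and each library left out), with none lower under any. Leaving risen genes out of the library totals put the median log2 fold change at 0.10 for all genes, against -0.02, and at 0.74 for the lysosomal genes, against 0.63. Under that scaling 750 genes of the whole table were lower in place of 1492, and among other lysosomal genes 32 were higher in place of 21 and 3 lower in place of 8. Other lysosomal genes lower in IFNG numbered 5 with no filter on low counts, and 5 to 8 with 1 library left out (5 without IFNG 2 or IFNG 6). Some uncalled genes near 0 changed sign: with risen genes left out of the totals, Neu1 was 0.090 and Cd68 0.065, and with 1 library left out Neu1 ran from -0.11 to 0.029, Cd68 from -0.15 to 0.055 and Ctsf from -0.097 to 0.12. The labels do not say what a shared replicate number stands for, and the data did not pair the numbers (correlations of their deviations -0.00096 to 0.12, 2 of 6 over 0.1, and 2 of 6 closest to their own number). With the replicate number as a block, 2114 genes of the whole table were higher and 1563 lower, 22 lysosomal genes were higher and 0 lower, and 18 other lysosomal genes were higher and 8 lower. Cstb did not pass with that block (0.50, adjusted p = 0.0572). The causes were not tested.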
